A study of Mus musculus with 9 samples.

Results

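The genes described here are the Wnt ligands, their receptors and their antagonists, with the Axin and Tcf/Lef proteins that carry the signal inside the cell. They were taken by name: every protein-coding gene of the tables called Wnt, Fzd, Sfrp or Dkk with a number, Lrp5 and Lrp6, Axin1 and Axin2, the Tcf7 genes, Lef1 and Wif1. This gave 40 of 22587 genes (16212 protein-coding), namely 14 Wnt ligands, 12 receptors (10 Frizzled genes, Lrp5 and Lrp6), 8 antagonists (4 Sfrp genes, 3 Dkk genes and Wif1) and 6 Axin and Tcf/Lef genes. 1 further gene with a matching name, the long noncoding RNA Fzd10os, was left out. All 40 passed the filter on low counts.

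RNA was sequenced from whole eyeballs of wild-type female BALB/C mice, an albino strain, in 3 groups of 3 libraries, of 15 mice bought for the study. CON mice received no injection and water, DES mice (dry eye syndrome) received scopolamine into the abdominal cavity and water, and T.chuii mice received scopolamine and 300 mg/kg of Tetraselmis chuii, a green microalga. Feeding lasted 2 weeks from an age of 6 weeks, and the labels give an age of postnatal day 56 for every group. Scopolamine blocks muscarinic acetylcholine receptors, so that glands secrete less. Because CON mice were not injected, the drug and the injection procedure cannot be told apart. The labels do not say whether each library is a mouse of its own. The p-values therefore rest on the spread of these libraries alone, part of which may be technical.

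Wnt proteins are secreted, lipid-bearing signals that bind Frizzled receptors and the co-receptors Lrp5 and Lrp6 on the cell surface. Without a ligand, a complex built on Axin marks beta-catenin for destruction, and with a ligand beta-catenin accumulates, enters the nucleus and activates genes together with Tcf/Lef proteins. Sfrp proteins and Wif1 bind the ligands themselves, whereas Dkk1 and Dkk2 bind the co-receptors. In the eye the pathway is known for its part in retinal vessels, the lens, the ciliary margin and the fate of the ocular surface epithelium.

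Library totals lay between 39.1 and 64.6 M reads, and the 40 genes held between 0.124% and 0.235% of them. The shares of reads held by genes of single eye tissues differed between libraries. The ratio of reads from 10 corneal epithelium genes to reads from 14 rod photoreceptor genes was 3.93, 2.55 and 3.93 for the libraries CON 2, DES 1 and T.chuii 1, and at most 0.861 in the other 6 libraries, so each group holds 1 such cornea-rich library. In these 3 libraries corneal reads held 7.57%, 4.9% and 4.3%, against at most 3.63% in the other 6. Rod reads held 1.92%, 1.92% and 1.09%, against at least 4.02%, so cornea-rich here means rich in corneal relative to rod reads. Genes of 5 lens crystallins (of 9 listed) held between 0.0199% and 0.0406% of reads in 4 libraries (all of CON, and DES 2), and between 1.21% and 5.86% in the other 5 libraries. The smallest count of any gene in any library was 1, so no listed gene that was found could stand at 0. Listed genes without deposited values, such as the other crystallins, were not assessed. In whole tissue, fewer cells of a type and less RNA per cell cannot be told apart.

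Levels of the 40 genes spanned a wide range on the FPKM scale (fragments relative to transcript length and library size, the deposited unit that allows genes to be compared). The 3 highest means were those of antagonists, though others of this class stood far lower, such as Dkk1 with 1.41 FPKM. Dkk3, a divergent Dkk family member, averaged 259 ± 54.1 FPKM (SD over 9 libraries), above 98.4% of protein-coding genes, followed by the Wnt-binding decoys Sfrp1 with 35.7 ± 11.7 and Sfrp2 with 24.9 ± 6.7. Wnt4 was the highest ligand with 23.4 ± 14.1 and Fzd6 the highest receptor with 11.8 ± 5.33. The spreads of Sfrp1, Sfrp2 and Wnt4 overlapped, and the order of these 3 by mean did not hold in every library. Wnt4 was the highest of them in CON 2 and Sfrp2 in CON 1 and CON 3, with Sfrp1 highest in every other library. Below them followed Wif1 with 10.6 FPKM, Wnt7b with 8.8, Sfrp4 with 8.08, Wnt10a with 7.14 and Dkk2 with 6.54. At the low end stood Wnt2b with 0.271 FPKM, Wnt3 with 0.0721 and Wnt9b with 0.0574, the last above only 1.1% of protein-coding genes. Wnt9b and Wnt3 overlap on chromosome 11 (103727362 to 103775272 and 103774175 to 103818021, mm10), so how their reads were divided is uncertain.

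**Figure D1:**
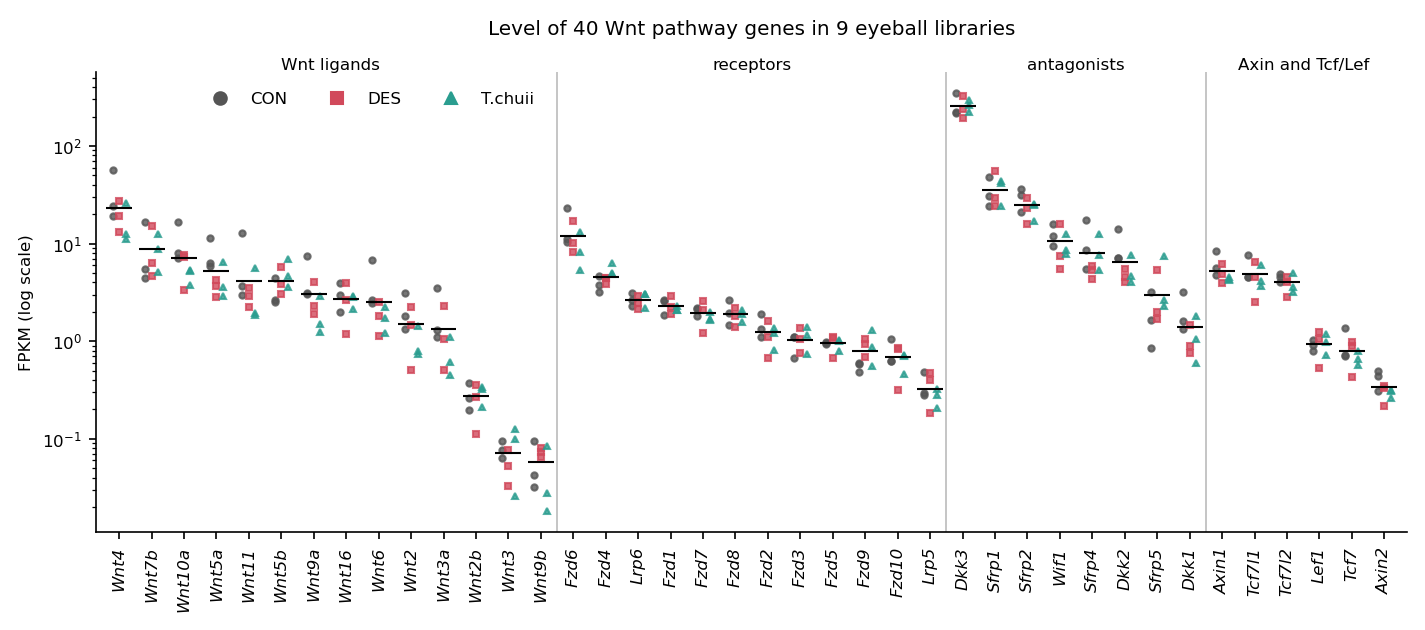
Deposited FPKM values (log axis) of the 40 genes in each of 9 libraries, with CON as circles, DES as squares and T.chuii as triangles, and the mean of 9 as a black line. Genes are grouped by role and ordered by mean; Dkk3 lies highest at 259 FPKM and Wnt9b lowest at 0.0574 FPKM.

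Promoter sequences are shown for the genes that the results below turn on: Wnt4 and Tcf7l1, which were highest in the cornea-rich libraries under every scaling, and Wnt6, Dkk2 and Fzd4, which differed between groups at an unadjusted p under 0.05. Each run holds the 250 bases before the annotated start, 5′ to 3′ on the strand of the gene, from RefSeq (GRCm38.p6, the assembly of mm10). Capitals mark the Tcf/Lef core motifs CTTTGA and CTTTGT, searched on both strands. The gene spans of Wnt6 and Dkk2 begin upstream of the start used here.
Wnt4, chr4:137277385-137277634, plus strand: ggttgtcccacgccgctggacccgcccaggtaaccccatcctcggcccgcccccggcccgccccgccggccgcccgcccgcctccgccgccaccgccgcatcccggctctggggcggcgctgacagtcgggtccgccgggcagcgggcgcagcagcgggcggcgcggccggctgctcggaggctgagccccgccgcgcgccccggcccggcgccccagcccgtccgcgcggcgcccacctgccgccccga
Tcf7l1, chr6:72789046-72789295, minus strand: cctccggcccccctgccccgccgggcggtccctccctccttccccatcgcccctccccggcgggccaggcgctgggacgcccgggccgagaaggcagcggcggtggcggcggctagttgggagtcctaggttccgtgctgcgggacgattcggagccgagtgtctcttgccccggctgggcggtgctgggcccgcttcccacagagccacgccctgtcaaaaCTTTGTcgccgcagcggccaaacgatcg
Wnt6, chr1:74771642-74771891, plus strand: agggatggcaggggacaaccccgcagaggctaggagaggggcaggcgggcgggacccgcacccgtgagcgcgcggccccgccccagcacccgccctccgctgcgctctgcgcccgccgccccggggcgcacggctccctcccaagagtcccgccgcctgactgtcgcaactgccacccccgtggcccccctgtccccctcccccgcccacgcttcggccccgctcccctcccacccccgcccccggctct
Dkk2, chr3:132085042-132085291, plus strand: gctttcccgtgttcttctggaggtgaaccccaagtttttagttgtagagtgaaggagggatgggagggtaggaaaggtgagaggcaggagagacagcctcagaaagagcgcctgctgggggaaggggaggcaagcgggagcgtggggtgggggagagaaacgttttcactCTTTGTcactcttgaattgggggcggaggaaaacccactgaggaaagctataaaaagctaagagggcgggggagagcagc
Fzd4, chr7:89404116-89404365, plus strand: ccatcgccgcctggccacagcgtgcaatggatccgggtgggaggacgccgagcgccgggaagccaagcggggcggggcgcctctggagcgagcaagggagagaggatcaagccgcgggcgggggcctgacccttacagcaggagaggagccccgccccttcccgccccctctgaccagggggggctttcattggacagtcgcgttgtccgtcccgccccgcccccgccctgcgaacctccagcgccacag

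Of these 5 windows, those of Tcf7l1 and Dkk2 hold 1 motif each, and those of Wnt4, Wnt6 and Fzd4 hold none of these letters. The RefSeq promoter table held 27 of the 40 genes, with 35 windows. A motif stood in 9 of the 35 windows (25.7%), against 27.6% of all 32851 windows of the same length. The 2 shares were close, but the windows compared were not matched in GC content. Most motifs, 3 each, stood in the window of Dkk1, a known target of the pathway, and in a window of Lef1. The window of Axin2, also a standard target, held 0, as did the other windows of Lef1. The 35 windows were rich in CpG, with a median of 21 CpG pairs and 66.4% GC, against 6 and 52.4% over all windows. A motif match describes letters and is not a binding site.

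Wnt ligands are described first, in CPM (reads per 1 M reads of the library, scaled by trimmed means of M-values), used here to compare libraries and not genes. Wnt4, a ligand known from kidney and female gonad development, stood at 70.8, 250 and 90.7 for CON, 117, 67.7 and 59.9 for DES and 115, 46.8 and 47.1 for T.chuii. CON 2 was by far its highest library, DES 1 and T.chuii 1 came next, and the groups overlapped. Wnt7b, which macrophages use in the eye to remove the vessels of the early vitreous, stood at 18, 63.5 and 14.7 for CON, 57.3, 14.4 and 25.8 for DES and 34.9, 46.9 and 17 for T.chuii. Each group had at least 1 high and 1 low library, and group means differed by less than their spread (32 ± 27.2, 32.5 ± 22.2 and 32.9 ± 15.1 CPM for CON, DES and T.chuii, SD, n = 3).

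Wnt5a, a ligand that acts largely without beta-catenin, through receptors such as Ror2, had CPM values of 32.1, 74.5 and 34.5 for CON, 26.9, 20.5 and 19.5 for DES and 44.2, 19 and 20.7 for T.chuii. Every DES library lay below every CON library, while T.chuii 1 lay inside the CON range. The log2 change from CON to DES was -0.98 ± 0.39 (SE), with 22.3 ± 4.03 against 47 ± 23.8 CPM (limma-voom unadjusted p = 0.0309, adjusted p = 1 over 21287 genes). Injected libraries of both kinds against CON gave -0.87 ± 0.33 (limma-voom unadjusted p = 0.0258, adjusted p = 1). Neither passed the threshold of 0.05 on the adjusted p. Reads of 5 ciliary body and trabecular meshwork genes, tissues at the front of the eye, moved with Wnt5a: they held 0.0462%, 0.0719% and 0.0385% for CON, 0.0315%, 0.0253% and 0.0306% for DES and 0.048%, 0.0341% and 0.0362% for T.chuii, and reads of 11 keratocyte, sclera and stroma genes held 0.438%, 0.555% and 0.454% for CON, 0.31%, 0.244% and 0.381% for DES and 0.478%, 0.226% and 0.284% for T.chuii. Both shares were lower in every DES library than in every CON library. Their part in the Wnt5a difference was not tested.

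Wnt10a and Wnt6 are neighbours on chromosome 1 (74792019 to 74804176 and 74754342 to 74785322, mm10), 6.7 kb apart. Wnt10a, needed for teeth and other ectodermal appendages, stood at 13.3, 37.2 and 15.2 for CON, 16.1, 13.7 and 7.73 for DES and 12.3, 11.3 and 7.36 for T.chuii CPM. Every T.chuii library lay below every CON library, by 10.3 ± 2.62 against 21.9 ± 13.3 CPM on average (log2 change -0.99 ± 0.43, limma-voom unadjusted p = 0.0441, adjusted p = 0.986). Wnt6 stood at 4.96, 16.2 and 5.17 for CON, 5.82, 3.49 and 2.82 for DES and 5.54, 3.99 and 2.55 for T.chuii, again with CON 2 far above the rest and with overlapping groups. Injected libraries differed from CON by -0.97 ± 0.43 for Wnt6 and by -0.85 ± 0.36 for Wnt10a (limma-voom unadjusted p = 0.0455 and 0.0407, adjusted p = 1 for both).

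A second neighbouring pair, Wnt3a and Wnt9a, lies 16.1 kb apart on chromosome 11. Wnt9a, a ligand of joint formation, stood at 9.99, 28.4 and 9.81 for CON, 15.1, 7.01 and 7.45 for DES and 11.3, 4.56 and 4.97 for T.chuii CPM. T.chuii 2 and T.chuii 3 were its lowest libraries and T.chuii 1 lay within the CON range, so the groups overlapped. Between T.chuii and CON the log2 change was -1.18 ± 0.52 (6.95 ± 3.79 against 16.1 ± 10.7 CPM, limma-voom unadjusted p = 0.0451, adjusted p = 0.986). Wnt2, a ligand of lung development, stood at 4.7, 8.66 and 3.47 for CON, 6.42, 3.29 and 3.29 for DES and 4.4, 2.01 and 1.93 for T.chuii CPM. Its change from CON to T.chuii was -1.03 ± 0.46 (2.78 ± 1.41 against 5.61 ± 2.71 CPM, limma-voom unadjusted p = 0.049971, adjusted p = 0.986), with overlapping libraries.

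Without CON 2, the changes of these ligands were smaller: -0.59 ± 0.35 for Wnt5a in DES against CON, -0.52 ± 0.34 for Wnt10a, -0.65 ± 0.45 for Wnt9a and -0.65 ± 0.46 for Wnt2 in T.chuii against CON, and -0.40 ± 0.36 for Wnt6 in injected libraries. Without all 3 cornea-rich libraries they were -0.74 ± 0.19, -0.67 ± 0.31, -1.07 ± 0.23, -1.03 ± 0.30 and -0.69 ± 0.26 in the same order. In injected libraries against CON, the changes without CON 2 were -0.48 ± 0.31 for Wnt5a and -0.37 ± 0.30 for Wnt10a. The direction was lower in each. The other 7 ligands averaged between 0.0574 and 4.17 FPKM, and none had an unadjusted p under 0.05. Wnt11 had the highest coefficient of variation of all 40 genes, 89.4% over 9 libraries, and an 8.04-fold range of CPM, and Wnt3a had an 8.03-fold range.

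**Figure D2:**
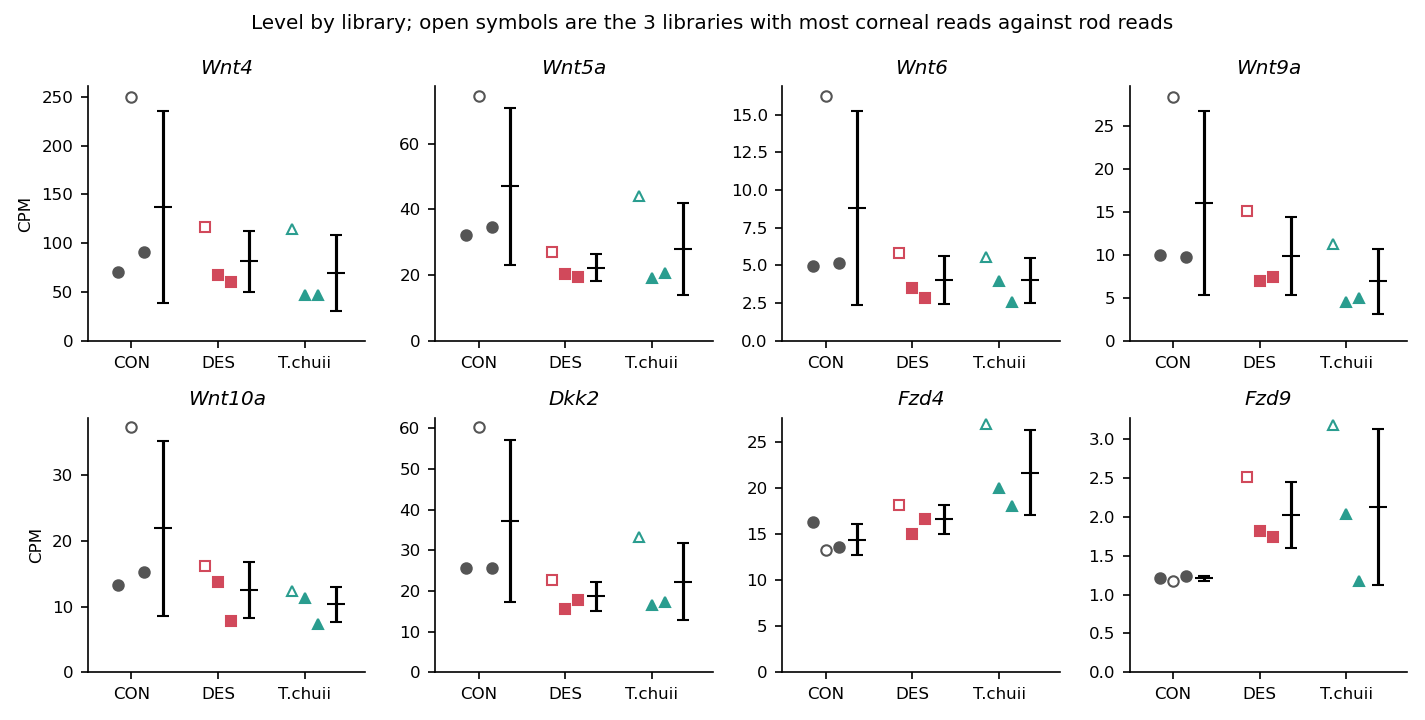
CPM by library (3 points per group) for 8 of the genes, with the group mean and SD as a bar to the right of the points; each vertical axis starts at 0, and open symbols are the cornea-rich libraries CON 2, DES 1 and T.chuii 1. For Wnt4, Wnt5a, Wnt6, Wnt9a, Wnt10a and Dkk2 the CON 2 library lies above all others, and for Fzd4 every T.chuii library lies above every CON library.

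As a class, 11 of 14 ligands had a fitted log2 change below 0 in DES against CON (median -0.54), 11 in T.chuii against CON (-0.82) and 11 in injected libraries against CON (-0.71), while 8 had one in T.chuii against DES (-0.05). These counts, here and below, are of the sign of the log2 change, which for a gene near 0 can differ from the order of its mean CPM. Over all genes tested the medians were -0.02, -0.04, -0.03 and -0.03. The comparisons with CON share the 3 CON libraries and are not independent of each other. The differences from CON were smaller without CON 2, where the Wnt ligands' medians were -0.07 (9 of 14 below 0), -0.35 (9 of 14) and -0.17 (11 of 14). Without all 3 cornea-rich libraries together, a setting that leaves 2 libraries a group, the medians were -0.34 (11 of 14 below 0), -0.68 (10 of 14) and -0.54 (10 of 14).

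Among receptors, Fzd6, a Frizzled known from planar cell polarity in skin, stood at 43, 105 and 41.2 for CON, 77.2, 37.6 and 39.8 for DES and 60.8, 24.3 and 32.6 for T.chuii CPM. Its highest library in each group was the cornea-rich one. Fzd4 (chromosome 7, 89404366 to 89410110, mm10), the receptor for Norrin in retinal vessels, stood at 16.4, 13.3 and 13.6 for CON, 18.2, 15 and 16.7 for DES and 27, 20.1 and 18.1 for T.chuii. Its lowest values were those of CON 2 and CON 3, while CON 1 lay above DES 2. Every T.chuii library lay above every CON library. The log2 change of Fzd4 from CON to T.chuii was 0.58 ± 0.22 (21.7 ± 4.67 against 14.5 ± 1.69 CPM, limma-voom unadjusted p = 0.0268, adjusted p = 0.986), and from DES to T.chuii it was 0.37 ± 0.22, with overlapping libraries. Without the cornea-rich libraries the change from CON was 0.34 ± 0.21. Reads of 6 Muller glia genes, the supporting glia of the retina, also lay higher in every T.chuii library than in every CON library: they held 0.453%, 0.447% and 0.525% for CON, 0.492%, 0.45% and 0.453% for DES and 0.613%, 0.685% and 0.57% for T.chuii. The same held for reads of 10 fast skeletal muscle genes (between 0.265% and 1.12% in T.chuii, between 0.0552% and 0.178% in CON), of 3 adipocyte genes and of the lens crystallins. Their part in the Fzd4 difference, and in that of other genes between T.chuii and CON, was not tested. The span of Fzd4 overlaps that of Tmem135 in RefSeq, and how the counting treated strand was not given in the sources used here: some reads may belong to the neighbour.

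Fzd9, a low-level Frizzled, stood at 1.21, 1.17 and 1.24 for CON, 2.51, 1.82 and 1.74 for DES and 3.17, 2.03 and 1.17 for T.chuii CPM. Its 3 CON libraries were nearly equal (1.21 ± 0.0353), every DES library was higher (2.02 ± 0.422), and T.chuii 3 stood level with the lowest CON library. Lens crystallin reads held 4.07%, 0.0406% and 3.47% for DES and 1.21% for T.chuii 3, against at most 0.0285% for CON. Their part in the Fzd9 difference was not tested. Lrp6, the main co-receptor, stood at 27.9, 24.6 and 24.3 for CON, 25.7, 25.1 and 23.5 for DES and 24, 31.4 and 28.4 for T.chuii. It was the steadiest of the 40 genes, with a coefficient of variation of 9.89%. Its log2 difference from CON was -0.04 in DES, with a 95% interval from -0.46 to 0.38, and 0.12 in T.chuii, from -0.29 to 0.54. The other 8 receptors averaged between 0.324 and 2.3 FPKM, and no unadjusted p among them was under 0.05. Medians of the 12 receptors were close to 0 in every comparison (-0.02 for DES and -0.04 for T.chuii against CON, -0.03 for injected libraries, 0.02 for T.chuii against DES).

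Of the antagonists, Dkk3 stood at 732, 1350 and 728 for CON, 1250, 745 and 774 for DES and 877, 1110 and 874 for T.chuii CPM. Its means of 936 ± 356, 922 ± 282 and 953 ± 135 differed by far less than the spread within a group. Sfrp1 stood at 131, 238 and 103 for CON, 269, 98 and 151 for DES and 223, 201 and 104 for T.chuii, and DES 1, CON 2 and T.chuii 1 were its 3 highest libraries. Sfrp2 stood at 60.5, 48.1 and 71.4 for CON, 65.4, 29.1 and 54.9 for DES and 59, 54.9 and 33.8 for T.chuii, with its 2 lowest values in DES 2 and T.chuii 3. Both decoys overlapped between all groups.

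Dkk2 (chromosome 3, 132085266 to 132180304, mm10), which mice need for a corneal rather than a skin-like ocular surface, stood at 25.6, 60.3 and 25.7 for CON, 22.6, 15.5 and 17.9 for DES and 33.2, 16.6 and 17.2 for T.chuii CPM. All 3 DES libraries lay below all 3 CON libraries, and T.chuii 1 lay among the CON values. The log2 change was -0.89 ± 0.39 from CON to DES (18.7 ± 3.61 against 37.2 ± 20 CPM, limma-voom unadjusted p = 0.0416, adjusted p = 1) and -0.80 ± 0.33 for injected libraries against CON (limma-voom unadjusted p = 0.0341, adjusted p = 1). Without CON 2 the change in DES was -0.48 ± 0.32 and that in injected libraries -0.38 ± 0.28. Without the 3 cornea-rich libraries they were -0.64 ± 0.20 and -0.63 ± 0.17. Dkk2 was lowest in DES 2, where ciliary body and trabecular meshwork reads were fewest, and both Dkk2 and Wnt5a were highest in CON 2, where these reads were most frequent. The part of these reads in the Dkk2 difference was not tested. The other 4 antagonists averaged between 1.41 and 10.6 FPKM. Sfrp5 was among them the gene with the widest range, 8.88-fold, from 1.84 CPM in CON 2 to 16.4 in T.chuii 1.

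**Figure D3:**
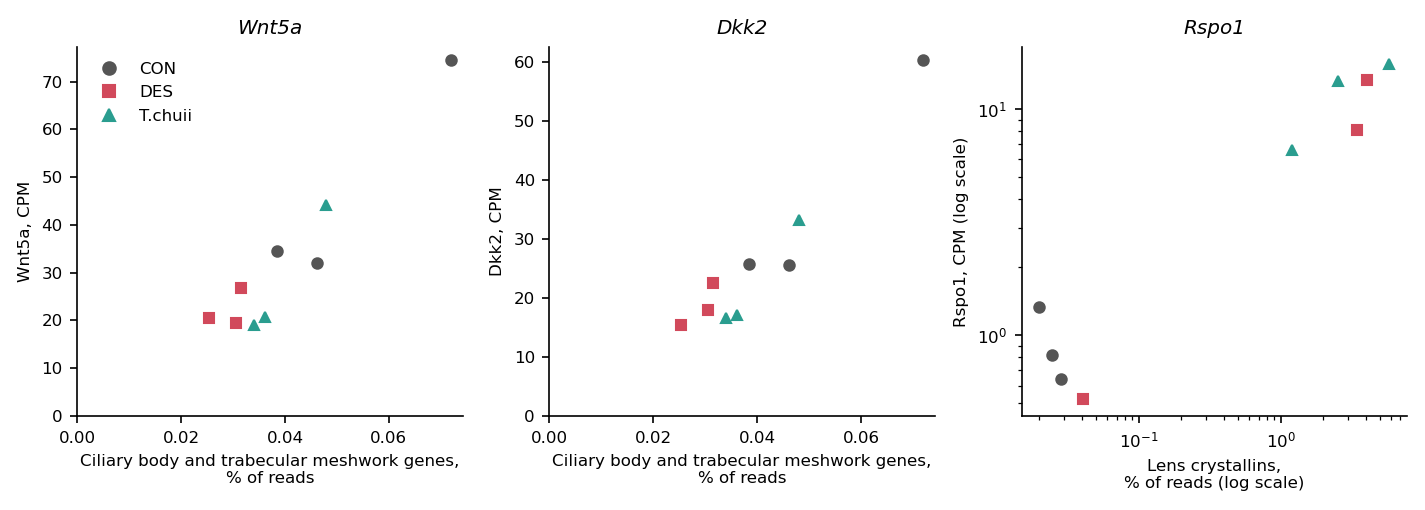
Wnt5a and Dkk2 (CPM) against the share of reads held by 5 ciliary body and trabecular meshwork genes, and Rspo1 (CPM) against the share held by 5 lens crystallins (both axes of this panel on a log scale), with 1 point per library. CON 2 lies at the upper right for Wnt5a and Dkk2, and Rspo1 is at most 1.33 CPM in the 4 libraries with few lens reads.

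The log2 change from DES to T.chuii was above 0 for all 8 antagonists, with a median of 0.09, where it was above 0 for 45.1% of all genes, and 0 of the 8 had an unadjusted p under 0.05. Sfrp2 had nearly equal group means, of 49.2 CPM in T.chuii and 49.8 in DES. This count turned to 2 of 8 without T.chuii 1 and to 4 of 8 without DES 2. Against CON, the change was below 0 for 5 of 8 in DES and 5 of 8 in T.chuii, with medians of -0.37 and -0.23, close to the shares of all genes (52.4% and 55.4%).

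Of the Axin and Tcf/Lef genes, Axin1, the scaffold of the destruction complex, stood at 20.4, 35.4 and 17.4 for CON, 20.4, 20.6 and 17 for DES and 17.4, 17.4 and 16.9 for T.chuii CPM. CON 2 stood alone above the other 8 libraries, which lay between 16.9 and 20.6. Axin2, a scaffold that is also a standard target of the pathway, stood at 2.09, 1.57 and 1.9 for CON, 1.58, 1.42 and 1.1 for DES and 1.3, 1.55 and 1.3 for T.chuii. Every T.chuii library lay below every CON library, yet the log2 change of -0.40 ± 0.29 had an unadjusted p of 0.199 (limma-voom, adjusted p = 0.986). Tcf7, first known from T cells, stood at 6.14, 10.1 and 6.14 for CON, 7.34, 6.17 and 4.47 for DES and 6.01, 5.61 and 5.77 for T.chuii, and its T.chuii libraries too lay below all CON libraries (log2 change -0.33 ± 0.29). Skp1 overlaps the span of Tcf7 in RefSeq, so its reads may be shared.

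Tcf7l1, which mostly represses its targets, stood at 12.5, 24.8 and 12.6 for CON, 20.7, 11.9 and 8.64 for DES and 19.9, 13.1 and 10.4 for T.chuii CPM. Tcf7l2, the main family member of the gut epithelium, stood at 19.4, 21.2 and 16.6 for CON, 20.9, 15.4 and 14.1 for DES and 23.6, 14.5 and 14.2 for T.chuii. For both, the 3 highest libraries were CON 2, DES 1 and T.chuii 1. Lef1, with 0.938 FPKM on average, differed from CON by a log2 change of 0.05 in DES and 0.13 in T.chuii.

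Across the 40 genes the cornea-rich libraries recurred. In 15 of 40 genes CON 2, DES 1 and T.chuii 1 were the 3 highest of 9 libraries, where 13.1% of all genes showed this, and in 0 genes were they the 3 lowest (13.8% of all genes). The count depended on the scaling. It was 15 with median-of-ratios size factors, 5 when only library totals were used (7.53% of all genes, and 17.2% for the 3 lowest) and 6 on deposited FPKM (7.02%, and 15.8% for the 3 lowest). Wnt4, Fzd6, Fzd8, Fzd2 and Tcf7l1 were highest in these libraries under all 4 scalings. With trimmed means, CON 2 was the highest library of 22 of the 40 genes, against 29.2% of all genes, and DES 3 the lowest of 14, against 14.4%. These last counts were not repeated under the other scalings.

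**Figure D4:**
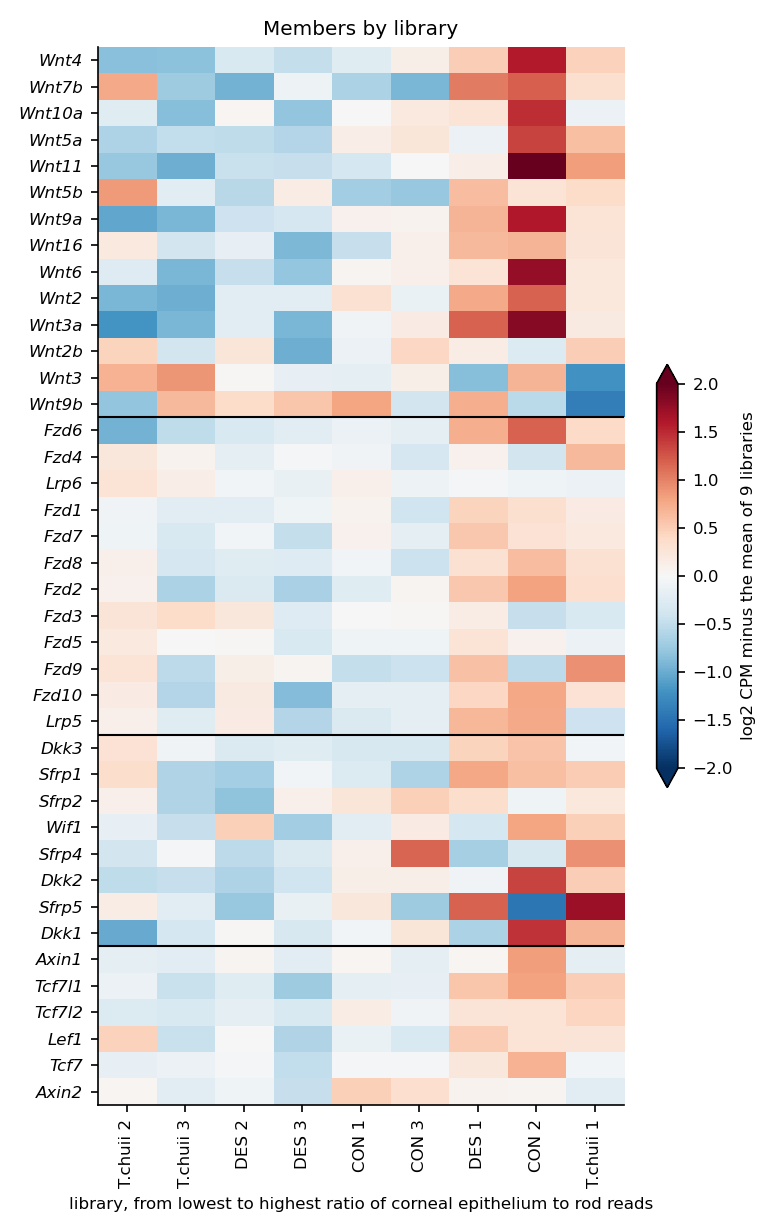
Log2 CPM of each gene minus its mean over 9 libraries (colour from -2 to 2, red above the mean), with libraries ordered by their ratio of corneal epithelium to rod reads. CON 2, second from the right, is above the mean for most genes, and most strongly for Wnt4, Wnt6, Wnt11 and Wnt3a.

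DES against CON asks what scopolamine injection changed. 0 of 40 genes were called at adjusted p 0.05 by limma-voom, as were 0% of the 21287 genes tested. At an unadjusted p under 0.05 there were 2 of 40 (Wnt5a and Dkk2, both lower), against 1.1% of all genes. 28 of 40 had a log2 change below 0, against 52.4% of all genes. Groups did not overlap in 1 gene that was higher (Fzd9), against 2% of all genes, and in 2 that were lower (Wnt5a and Dkk2), against 1.65%. Without CON 2, 19 of 40 had a change below 0, and without the 3 cornea-rich libraries 30 had.

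T.chuii against DES addresses the effect of the alga within injected mice. 0 of 40 genes were called (0% of all genes), 0 had an unadjusted p under 0.05 (1.09% of all genes), and groups did not overlap in 0 genes, where 2.3% of all genes lay higher and 2.49% lower. 15 of 40 had a log2 change below 0, against 54.9% of all genes. That count was 9 without DES 1, 23 without DES 2, 28 without DES 3 and 27 without T.chuii 1, so no direction can be read from it.

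T.chuii against CON sets fed, injected mice beside untreated ones. 0 of 40 genes were called (0% of all genes). At an unadjusted p under 0.05 there were 4 of 40 (Fzd4 higher, and Wnt10a, Wnt9a and Wnt2 lower), against 4.28% of all genes. 28 had a log2 change below 0 (55.4% of all genes), or 20 without CON 2. Fzd4 lay higher without overlap (5.45% of all genes), and Axin2, Tcf7 and Wnt10a lower (2.97%).

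Leaving out the 3 cornea-rich libraries together leaves 2 libraries a group, so the standard errors of that fit rest on few libraries. Of the 20941 genes then tested, 6.27% had an unadjusted p under 0.05 in T.chuii against CON (limma-voom). Among the 40 genes, 12 had one. Of these, 11 were lower: Wnt9a (-1.07 ± 0.23), Wnt5a (-0.76 ± 0.19), Wnt4 (-0.78 ± 0.20), Wnt2, Wnt3a, Wnt11, Wnt6, Fzd6, Dkk2, Sfrp4 and Dkk1. Wnt5b was higher (1.01 ± 0.38), a ligand that stood at 6.07, 11.9 and 5.82 for CON, 15.2, 6.69 and 10.9 for DES and 12.8, 17.8 and 8.4 for T.chuii CPM over all libraries. T.chuii 2 and DES 1, its highest libraries, also held the most lens crystallin reads (5.86% and 4.07%). CON 2 went the other way, with 11.9 CPM and 0.0199%. The part of lens reads in the Wnt5b difference was not tested. The span of Wnt5b overlaps that of the protein-coding gene Fbxl14 in RefSeq, so reads may be shared. The smallest adjusted p among these 12 genes was 0.428 (limma-voom). With the ratio of corneal to rod reads as a covariate and all 9 libraries, 12 of 40 again had an unadjusted p under 0.05, where 10.3% of all genes had. Both settings were chosen with these libraries in view, and 0 genes of the 40 passed adjustment in either. Over all genes tested, 1 passed without the cornea-rich libraries and 0 with the covariate.

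Injected libraries of both kinds (n = 6) against CON gave 0 of 40 called (0% of all genes), 4 with an unadjusted p under 0.05 (Wnt5a, Wnt6, Wnt10a and Dkk2, all lower, against 2.87% of all genes), and 27 with a log2 change below 0 (54.7%). Groups did not overlap in 0 genes, where 0.803% of all genes lay higher and 0.319% lower.

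**Figure D5:**
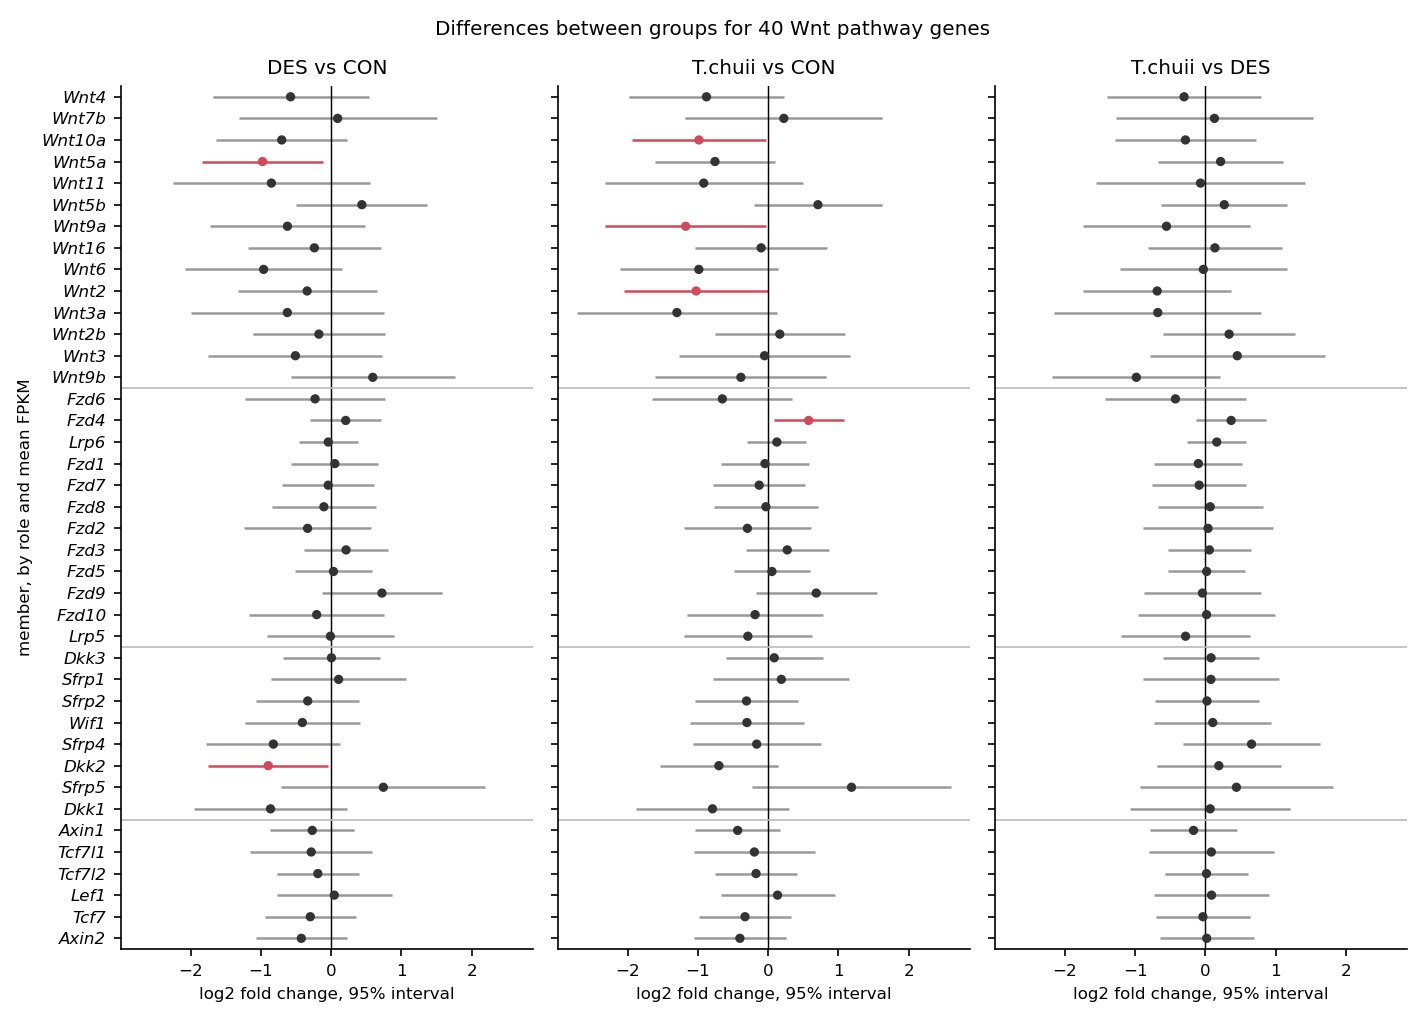
Log2 fold change (points) with its 95% interval (lines) for the 40 genes in 3 comparisons, grouped by role and ordered by mean FPKM; red marks an unadjusted p under 0.05. Ligands in the upper block lie mostly left of 0 in both comparisons with CON, and none of the 40 genes passed adjustment in any panel.

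Other genes of the pathway came from 8 lists, of which 67 of 72 genes were found and 66 tested. Against CON, 53 of 66 had a log2 change below 0 in DES (52.4% of all genes) and 46 in T.chuii (55.4%), and from DES to T.chuii 36 of 66 had one above 0 (45.1%). 0 passed adjustment (limma-voom). At an unadjusted p under 0.05 there were 1, 4 and 1 of 66 in these 3 comparisons, shares near those of all genes (1.1%, 4.28% and 1.09%). The 13 genes of the destruction complex and beta-catenin all had a log2 change below 0 in DES against CON, with a small median of -0.12 and with Btrc at -0.01, and 10 of 13 had one in T.chuii. Among the CON and DES libraries, DES 3 was the lowest for all of these genes except Gsk3a, Csnk1a1 and Tnks2. Counts for the 8 lists were not repeated with single libraries left out. Ctnnb1, beta-catenin itself, stood at 288, 571 and 302 for CON, 441, 332 and 275 for DES and 355, 304 and 292 for T.chuii CPM, with CON 2 highest.

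Rspo1, an R-spondin that strengthens Wnt signals by sparing Frizzled receptors from degradation, showed the widest change of these genes. It stood at 0.641, 1.33 and 0.822 for CON, 13.5, 0.522 and 8.14 for DES and 13.4, 15.9 and 6.58 for T.chuii CPM. T.chuii lay above CON without overlap (12 ± 4.82 against 0.929 ± 0.355 CPM, log2 change 3.61 ± 1.03, limma-voom unadjusted p = 0.00533, adjusted p = 0.986), and DES 2 was as low as the CON libraries. Lens crystallin reads moved with it: they held 0.0285%, 0.0199% and 0.0246% for CON, 4.07%, 0.0406% and 3.47% for DES and 2.53%, 5.86% and 1.21% for T.chuii. The same 5 libraries were high in both, as the plot of Rspo1 against lens reads shows, and the part of lens reads in the Rspo1 difference was not tested.

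In the Norrin arm, Tspan12, a membrane partner of Fzd4 in retinal vessels, stood at 20, 18.9 and 21.7 for CON, 27.7, 29 and 26.6 for DES and 38.4, 26.6 and 24.3 for T.chuii CPM. All 6 injected libraries lay above all 3 CON libraries (28.8 ± 4.99 against 20.2 ± 1.44 CPM, log2 change 0.49 ± 0.19, limma-voom unadjusted p = 0.0255, adjusted p = 1). Ndp, which encodes Norrin, stood at 7.71, 3.67 and 8.51 for CON, 5.2, 10 and 9.66 for DES and 4.15, 10.7 and 10.3 for T.chuii, with its lowest values in the 3 cornea-rich libraries and overlapping groups. The Wnt-binding antagonist Frzb had a higher mean in T.chuii than in CON (29 ± 4.53 against 18.5 ± 6.93 CPM, log2 change 0.73 ± 0.32) and Myc, a classic target, a lower mean (9.56 ± 3.88 against 15.8 ± 3.93, -0.78 ± 0.34), each at limma-voom unadjusted p under 0.05 and adjusted p = 0.986. Ror2, a Wnt5a receptor, was below CON in every DES library (0.826 ± 0.357 against 1.71 ± 0.826 CPM, log2 change -1.03 ± 0.46), and Bcl9, a beta-catenin cofactor, was above DES in every T.chuii library (10.2 ± 2.11 against 6.78 ± 1.19, 0.58 ± 0.26), with adjusted p = 1 for both (limma-voom). Ciliary body and trabecular meshwork reads were likewise below CON in every DES library, and Muller glia reads above DES in every T.chuii library. The part of these reads in the Ror2 and Bcl9 differences was not tested.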

How the data were processed

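Whole eyeball RNA of 9 samples (3 CON, 3 DES, 3 T.chuii) was sequenced from strand-marking mRNA libraries, per the labels' protocols. The aligners HISAT2 2.1.0 and Bowtie2 2.3.4.1, the assembler StringTie 2.1.3b, the read tools Trimmomatic 0.38 and FastQC 0.11.7, and the build mm10 are named, per the submitters' processing notes. For the counting, settings and strand handling are not given in the sources used here. Overlapping genes or close paralogs may therefore have divided reads (18 of the 40 genes overlap another gene, 6 of them a protein-coding gene). The authors deposited a read count and an FPKM value per gene and library, per the file headers. Rows have a varying number of cells, so both values were located by counting cells from the right. The smallest count was 1 over all genes and libraries, and genes of these families without deposited values were not assessed.

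Genes were kept where CPM reached the equivalent of 10 reads for the median library size in 3 or more libraries and the total was 15 reads or more, which left 21287. The planned count test was replaced by limma-voom (limma 3.58.1, R 4.3.3) because the irregular rows could not be declared as counts by column. All 9 libraries entered 1 fit with 6 residual degrees of freedom, scaling was by trimmed means of M-values, tests were two-sided, and p-values were adjusted by Benjamini-Hochberg over all genes tested, for each of 4 comparisons. The fit was tested on simulated data with the same biological spread for every gene and no tissue differences between libraries. That test therefore does not measure what the fit can call in these libraries. Tables and figures used Python 3.11.15, pandas 2.3.3 and matplotlib 3.10.9. No 2 libraries agreed within sampling noise (lowest chi-square per degree of freedom 32.7). Shares of reads have Wilson 95% intervals of at most 0.00691 percentage points to either side, which cover counting error only.

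Values in every library are given for 20 genes: those with an unadjusted p under 0.05 in any comparison (7), those whose groups do not overlap in a comparison of single groups (7), and the 3 of highest mean FPKM in each role (12). The members and lists were chosen with earlier results of these data known. Coordinates, names and promoters are from RefSeq tables of GRCm38.p6. Correlations of deviations from group means between same-numbered libraries were 0.635, 0.411 and 0.197 for DES with T.chuii, -0.382, -0.28 and 0.324 for CON with DES, and -0.361, -0.421 and 0.345 for CON with T.chuii. Some libraries with different numbers correlated as strongly (0.552 for DES 2 with T.chuii 3, 0.535 for CON 2 with DES 1). Any pairing rests on the numbers in the titles, and numbers in the column headers differ from them.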

Additional observations from a re-analysis of the deposited data

How the results depend on the processing

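The count of genes called was 0 of 40 in each of the 4 comparisons under all settings run: other scalings, filters and pseudocounts, limma-trend on CPM or FPKM, sample weights, fits of only the groups compared, the ratio of corneal to rod reads as a covariate, each library left out in turn, and the 3 cornea-rich libraries left out together. With the replicate block, called genes were 0 of 40 in every comparison, and also 0 of 40 in the paired fit of DES and T.chuii libraries alone, a fit added after seeing the data. Over all genes tested, the count called was 0 in most settings. It was at most 23, for injected libraries against CON without DES 2. With so few called among all genes, 0 of 40 says little about these genes in particular. The 10 log2 changes with an unadjusted p under 0.05 kept their direction in 21 settings each, and their sizes ranged from -1.19 to -0.59 for Wnt5a in DES against CON and from 0.34 to 0.7 for Fzd4 in T.chuii against CON. With single libraries left out, the number of genes with a log2 change below 0 from DES to T.chuii ranged from 9 to 28 (15 with all libraries). The number of genes highest in the 3 cornea-rich libraries was 15 with trimmed means, 5 with library totals and 6 on deposited FPKM, settings added after seeing the data. The causes of these shifts were not tested. With 3 libraries a group, the median standard error of the 40 log2 changes was between 0.352 and 0.41, which limits what the test can call. For Wnt3 and Wnt9b, at under 1 CPM, counting error adds to this.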
